A study of Mus musculus with 4 samples.

Results

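The genes described here are 9 genes of the perineuronal net, the lattice of extracellular matrix that encloses the cell body and proximal dendrites of some neurons. They were picked by gene name, by a rule that uses no measured value but was written with earlier results of these data known, and all 9 were found among the 56748 genes of the deposited tables. In a net, hyaluronan chains at the cell surface carry lecticans, which are proteoglycans with chondroitin sulfate side chains: aggrecan (Acan), brevican (Bcan), neurocan (Ncan) and versican (Vcan). Link proteins (Hapln1, Hapln2 and Hapln4) hold each lectican on its hyaluronan chain, and tenascins (tenascin-R, Tnr, and tenascin-C, Tnc) bind the other end of the lecticans. In hippocampus, nets are best known around parvalbumin interneurons and CA2 pyramidal neurons, where they limit plasticity. Some of the same genes also serve looser matrix: versican and tenascin-R around oligodendrocyte precursor cells (OPC), and Hapln2 (Bral1) with a versican isoform at nodes of Ranvier.

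RNA was counted in single nuclei of mouse hippocampus in 8 pools, each made from 3 male mice. Mice underwent repeated social defeat (RSD), a stressor that exposed caged groups of them to an unfamiliar CD-1 aggressor for 2 h a night over 6 nights, and nuclei were taken 14 h after the last exposure. Controls were left undisturbed. In the diet experiment, C57BL/6 mice, bought at 5 to 7 weeks of age, received chow with PLX5622, an antagonist of CSF1R that depletes microglia, or vehicle chow for 7 days before RSD and throughout it; its pools form the vehicle pair (Control-Vehicle with Stress-Vehicle) and the PLX5622 pair (Control-PLX5622 with Stress-PLX5622). In the genotype experiment, nIL-1R1-/- mice carried Cre under Vglut2 (Slc17a6) with floxed Il1r1, so that the receptor is lost only from neurons with a Vglut2 history, and IL-1R1+/+ mice were controls without Cre. Its pools form the IL-1R1+/+ pair (Con-IL-1R1+/+ with Stress-IL-1R1+/+) and the nIL-1R1-/- pair (Con-nIL-1R1-/- with Stress-nIL-1R1-/-). Values by pool are given below for the controls and then for the stress pools of these 4 pairs, in this order. Each condition is 1 pool, so RSD has 4 pairs of pools as its replicates. Diet and genotype have 2 pools on each side, the control and the stress pool of 1 pair. The p-values below therefore measure the spread between pools of 3 mice, not between mice. For diet and genotype, that spread is how far the stress change differs between pairs, not the spread between replicate pools. Other differences between 2 pairs cannot be told apart from diet or genotype.

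UMIs (unique molecular identifiers) were the unit of counting, and nuclei in which mitochondrial genes took more than 20% of them were left out. The 56834 nuclei kept were between 5858 and 8474 in a pool. Depth differed widely: the pools held between 7534594 and 58081835 UMIs, and median UMIs per nucleus were lowest in Control-PLX5622 (598) and Stress-PLX5622 (628) and highest in Con-nIL-1R1-/- (5012). No nuclear barcode was shared between pools. Nuclei were clustered without the 9 genes and classes were named from marker lists; 20842 nuclei (36.67%) stayed unnamed and enter only sums over all nuclei. A defining marker was present in every pool for several classes, with Pvalb at 25.6 to 68.2 UMIs per 1000000 UMIs (CPM) in Pvalb-type nuclei. Rgs14 was 37.2 to 126 CPM in CA2-like, Pdgfra 186 to 344 CPM in OPC-like and Mbp 4324 to 5985 CPM in oligodendrocyte-like nuclei. In astrocyte-like nuclei Aqp4 was 14.1 to 87.3 CPM. Neurogliaform-type nuclei had no such check by pool. Over all nuclei the targeted gene Il1r1 was at 5.27 and 4.93 CPM in the nIL-1R1-/- pools (control and stress) and at 15.3 and 11.98 CPM in the IL-1R1+/+ pools, and cells outside the Vglut2 lineage keep it. Neuron markers were present in every glial class, at 5765 to 9288 CPM summed over 4 markers in OPC-like nuclei and 1403 to 2150 in oligodendrocyte-like nuclei. The class of Slc17a6 excitatory nuclei came mostly from Con-IL-1R1+/+ (1393 of 2355) and the medium spiny class from Stress-IL-1R1+/+ (293 of 315), so these classes did not enter the pools evenly. In such sums a lower number of nuclei of a type and a lower level per nucleus cannot be told apart.

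Several of the 9 genes lie side by side in the genome. By the GENCODE vM39 annotation of GRCm39 (mm39, the build of the files), Bcan (chr3:87894835-87910177) and Hapln2 (chr3:87926800-87934890) both lie on the minus strand, 16.6 kb apart. Vcan (chr13:89803431-89890814, minus strand) and Hapln1 (chr13:89686581-89759950, plus strand) are 43.5 kb apart. Ncan (chr8:70538926-70573523, minus strand) and Hapln4 (chr8:70536106-70543533, plus strand) overlap by 4608 bases on opposite strands, which is 62.04% of Hapln4. No protein-coding gene lies between the genes of any of these 3 pairs. Acan lies at chr7:78702964-78764847 (plus strand), Tnr at chr1:159351339-159759299 (plus strand) and Tnc at chr4:63878014-63965443 (minus strand). Whether the counting used strand is not given in the sources used here, so reads of Hapln4 and Ncan in their overlap, and reads from antisense transcripts, cannot be told apart. Of noncoding genes on the opposite strand that were counted on their own, those with over 100 UMIs were Gm26633 at Acan (1141 UMIs against 980 for Acan), Gm4117 at Vcan (741 against 6277), Gm38039 at Tnr (185 against 204618), 8030451A03Rik at Tnc (157 against 711) and Gm19439 at Hapln2 (126 against 609).

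Promoters are shown for Bcan, Hapln2 and Tnr because each was highest in a macroglial class (below). The second reason is that their 250 bases hold the letters ACAANG, where N is any base. ACAANG is a loose form of the core motif of SOX factors, a family that includes the glial factors Sox9 and Sox10. The windows are the 250 bases upstream of the canonical transcript in GRCm39, at chr3:87908210-87908459 (minus strand), chr3:87934819-87935068 (minus strand) and chr1:159351089-159351338 (plus strand). The Bcan window lies inside the annotated Bcan gene, and the Hapln2 window lies partly inside Hapln2. Capitals mark ACAANG on either strand.
Bcan: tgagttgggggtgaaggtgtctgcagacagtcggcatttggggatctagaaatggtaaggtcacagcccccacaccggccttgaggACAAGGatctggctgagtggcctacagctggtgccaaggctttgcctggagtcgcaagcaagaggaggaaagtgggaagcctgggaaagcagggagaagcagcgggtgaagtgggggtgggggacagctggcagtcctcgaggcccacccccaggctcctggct
Hapln2: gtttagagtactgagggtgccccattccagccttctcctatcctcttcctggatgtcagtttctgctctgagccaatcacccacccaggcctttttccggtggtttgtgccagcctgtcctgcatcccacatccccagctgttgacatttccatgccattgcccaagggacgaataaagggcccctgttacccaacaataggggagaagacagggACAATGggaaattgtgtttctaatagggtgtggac
Tnr: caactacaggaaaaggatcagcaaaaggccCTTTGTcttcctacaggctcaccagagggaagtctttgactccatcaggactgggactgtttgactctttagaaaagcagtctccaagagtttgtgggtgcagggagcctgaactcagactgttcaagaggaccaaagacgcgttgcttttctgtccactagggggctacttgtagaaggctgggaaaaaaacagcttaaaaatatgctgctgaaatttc
A match was found in 3 of the 9 genes and in 34.86% of all 21770 protein-coding promoters of the same length, so these letters are common. Ncan, Vcan and Tnc, also highest in macroglial classes, had no match in this window. A match is a description of the letters only.

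The levels that follow are CPM of the UMIs summed per class and pool, given as mean ± SD over 8 pools. They are a description with no test, since classes come from clustering, and levels are compared between classes for the same gene only. The genes differed in where they were highest: Acan in CA2-like, Pvalb-type and OPC-like nuclei, Vcan and Tnr in OPC-like nuclei, Bcan and Tnc in astrocyte-like nuclei, Hapln1 in neurogliaform-type nuclei and Hapln2 in oligodendrocyte-like nuclei, while Ncan was spread over most classes and Hapln4 was low throughout.

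**Figure D1:**
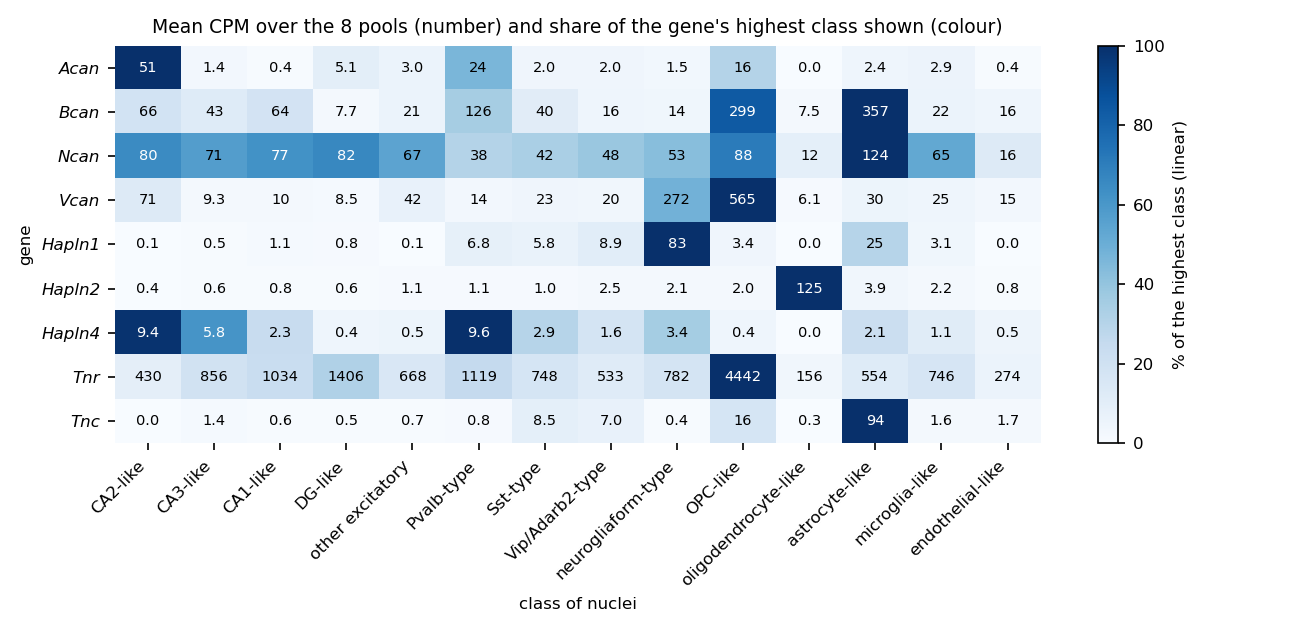
Mean CPM over the 8 pools of each of the 9 genes (rows) in 14 classes of nuclei (columns); the colour is the percentage of the gene's highest class shown, on a linear scale. The darkest cells are Acan in CA2-like, Vcan and Tnr in OPC-like, Hapln1 in neurogliaform-type, Hapln2 in oligodendrocyte-like and Bcan, Ncan and Tnc in astrocyte-like nuclei, while Hapln4 is about level in CA2-like and Pvalb-type nuclei.

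Acan, the lectican most used to mark nets, was highest in CA2-like nuclei at 50.9 ± 21.3 CPM (SD, n = 8 pools). In these 523 nuclei (0.9202% of all nuclei kept) lay 203 of its 980 UMIs, or 20.7%. Pvalb-type interneurons followed with 23.6 ± 8.58 CPM and OPC-like nuclei with 15.5 ± 5.75 CPM. The ranges over pools of these neighbours overlapped, with 14.3 to 77.3 CPM in CA2-like and 15.3 to 42.6 CPM in Pvalb-type nuclei. Below them came granule neurons of the dentate gyrus (DG-like) at 5.11 ± 1.83 CPM, whose range of 2.41 to 7.60 CPM lay just under the 7.88 to 24.8 CPM of OPC-like nuclei. Acan was 1.39 ± 0.849 CPM in CA3-like nuclei and was not seen in 1893 oligodendrocyte-like nuclei, which allows a share of up to 0.158% of nuclei with a UMI.

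The contrast between both parts of the CA2/3 field holds per nucleus as well. An Acan UMI was found in 22.8% of CA2-like nuclei (95% Clopper-Pearson interval 19.2 to 26.6%) and in 0.537% of CA3-like nuclei (0.341 to 0.804%). CA2-like nuclei were deeper, with median UMIs of 1628 to 11359 over pools against 1002 to 7809 in CA3-like nuclei. Nuclei were therefore also thinned to 500 UMIs, and those with fewer were left out, 8013 of 56834 in all. That took out 0 of 523 CA2-like, 203 of 4285 CA3-like, 331 of 1301 astrocyte-like and 453 of 1893 oligodendrocyte-like nuclei. After thinning, the shares were 1.91% (0.921 to 3.49%) in CA2-like and 0.0490% (0.006 to 0.177%) in CA3-like nuclei. In microglia-like nuclei, which are not known to make aggrecan, the shares were 1.26% and, after thinning, 0.106%, at median UMIs of 663.5 to 5517. The shares in CA3-like nuclei were thus at or under this background, and those in CA2-like and Pvalb-type nuclei (6.81%, after thinning 1.62%) were above it. All intervals and limits of this kind cover counting error only.

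By pool, Acan in CA2-like nuclei was 56.6, 77.3, 65.3 and 39.8 CPM in the controls and 61.6, 63.6, 28.6 and 14.3 CPM in the stress pools of the vehicle, PLX5622, IL-1R1+/+ and nIL-1R1-/- pairs. The lowest 2 values were thus the stress pools of the genotype experiment. The values from the PLX5622 pools rest on 5 and 4 UMIs, and those of the lowest 2 pools on 10 and 5.

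In Pvalb-type nuclei the level of Acan was 21.0, 20.2, 18.6 and 21.4 CPM in controls and 28.9, 42.6, 20.8 and 15.3 CPM in stress pools, in the same order of pairs. Control and stress pools overlapped, and the highest value rests on 10 UMIs. Of the interneurons, Sst-type nuclei held 2.01 CPM of Acan and neurogliaform-type nuclei 1.53 CPM.

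Bcan, a lectican secreted mainly by glia, was highest in astrocyte-like nuclei (357 ± 103 CPM) and in OPC-like nuclei (299 ± 97.8 CPM), whose ranges of 231 to 557 and 200 to 495 CPM overlapped. Pvalb-type nuclei were next at 126 ± 42.1 CPM, the highest of the interneurons: Sst-type nuclei had 39.8, Vip/Adarb2-type nuclei 15.6 and neurogliaform-type nuclei 13.9 CPM. Among pyramidal neurons Bcan was 65.7 ± 46.2 CPM in CA2-like, 64.4 ± 32.3 CPM in CA1-like and 43.3 ± 19.0 CPM in CA3-like nuclei. A Bcan UMI was seen in 40.0% of astrocyte-like, 45.6% of OPC-like and 29.3% of Pvalb-type nuclei against 0.792% of oligodendrocyte-like nuclei. At 500 UMIs the shares were 20.5%, 18.4%, 6.63% and 0.0694%. Median UMIs ranged over pools from 479.5 to 2213 in astrocyte-like and from 396 to 1638.5 in oligodendrocyte-like nuclei.

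Ncan, a lectican made by neurons and glia, had the flattest profile. It was 124 ± 29.7 CPM in astrocyte-like nuclei, 87.7 ± 16.5 in OPC-like, 81.8 ± 10.2 in DG-like, 80.3 ± 21.2 in CA2-like, 76.9 ± 10.9 in CA1-like and 70.7 ± 16.1 CPM in CA3-like nuclei. Each overlapped the next in range over pools. In astrocyte-like nuclei Ncan was 73.5, 148, 123 and 124 CPM in controls and 103, 106, 144 and 168 CPM in stress pools, and the lowest value was that of Control-Vehicle. Pvalb-type nuclei had 38.0 CPM of Ncan, less than the 72.6 CPM over all nuclei, and oligodendrocyte-like nuclei 11.5 CPM. Microglia-like nuclei had 65.0 ± 37.4 CPM of Ncan, near the level of CA3-like nuclei. A Ncan UMI was seen in 18.3% of microglia-like and 18.4% of OPC-like nuclei, and after thinning in 2.55% and 3.84%. The part of RNA from other nuclei in the flat profile of Ncan was not tested.

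Vcan had its highest level in OPC-like nuclei at 565 ± 207 CPM, where 35.0% of its UMIs lay. Neurogliaform-type interneurons, named from a list of Lamp5, Ndnf, Reln, Egfr and Id2, followed at 272 ± 82.0 CPM. Their range of 130 to 386 CPM did not overlap that of CA2-like nuclei, the next class (71.4 ± 17.5 CPM). In neurogliaform-type nuclei Vcan was 245, 130, 386 and 335 CPM in controls and 234, 217, 341 and 286 CPM in stress pools, with both PLX5622 pools lowest, and these 874 nuclei held 14.7% of its UMIs. Pvalb-type nuclei held 14.2 CPM. Per nucleus, a Vcan UMI was seen in 60.5% of OPC-like and 36.0% of neurogliaform-type nuclei, and at 500 UMIs in 29.3% and 12.2%. In oligodendrocyte-like nuclei the shares were 0.792% and 0.208%.

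**Figure D2:**
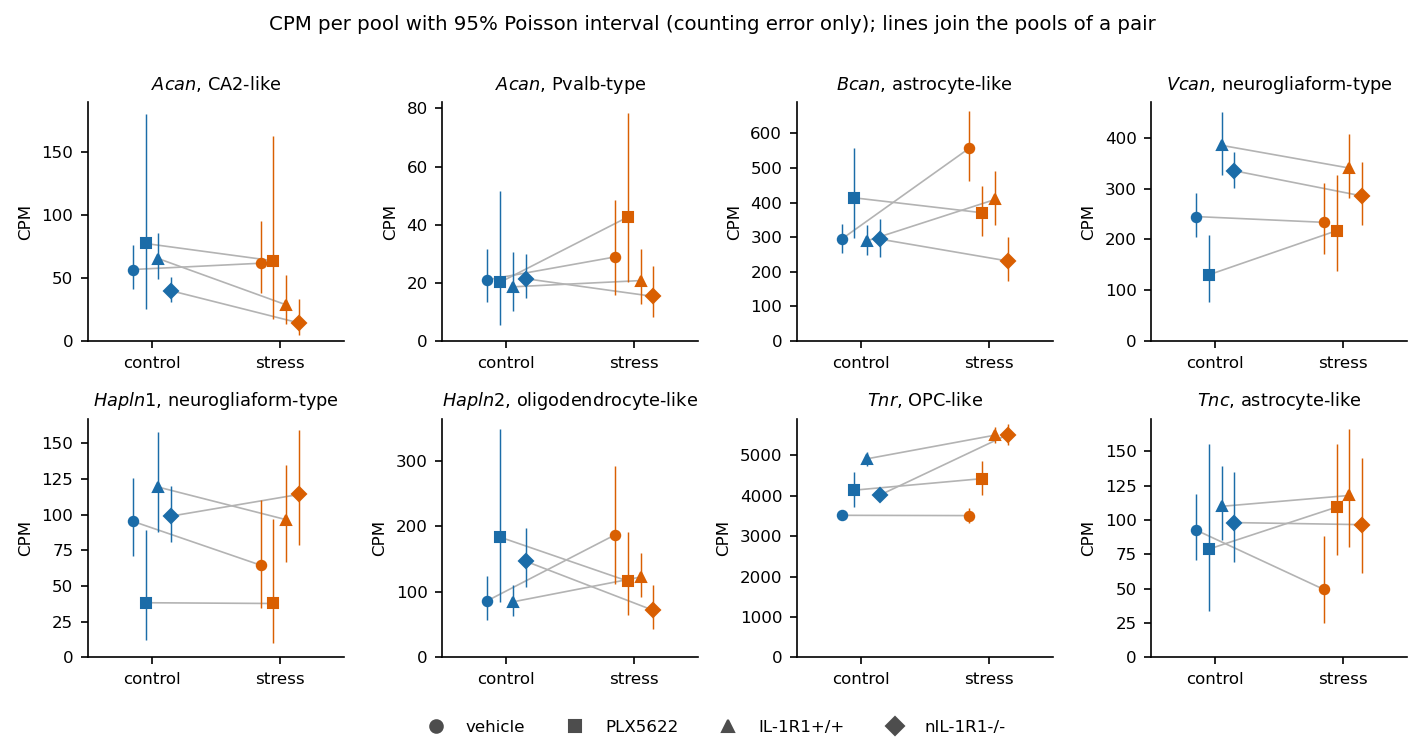
CPM in each pool (y axis) for 8 pairs of a gene and a class, with controls on the left and stress pools on the right; the symbol gives the pair, lines join the pools of a pair and bars are 95% Poisson intervals of the UMIs. Acan in CA2-like nuclei is lowest in Stress-IL-1R1+/+ and Stress-nIL-1R1-/- (28.6 and 14.3 CPM), and Hapln1 in neurogliaform-type nuclei is lowest in both PLX5622 pools (38.3 and 37.8 CPM).

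Hapln1, the link protein that binds aggrecan, was highest in neurogliaform-type nuclei at 83.2 ± 32.2 CPM, which held 38.0% of its UMIs. Astrocyte-like nuclei had 24.9 ± 12.5 CPM, and Vip/Adarb2-type, Pvalb-type and Sst-type nuclei had 8.92, 6.83 and 5.83 CPM. In neurogliaform-type nuclei the controls had 95.4, 38.3, 119 and 99.1 CPM of Hapln1 and the stress pools 64.7, 37.8, 96.6 and 114 CPM. Both PLX5622 pools were lowest, on 5 and 4 UMIs, and control and stress pools overlapped. Hapln1 was at 0 UMIs in oligodendrocyte-like nuclei and at 1 UMI in CA2-like nuclei, 0.191% of them (0.005 to 1.06%). The same neurogliaform-type nuclei thus had the highest Hapln1 and the second highest Vcan, next to each other on chromosome 13. Over 18 classes these 2 genes had a Pearson correlation of 0.471 on the log2(CPM + 1) scale, as a description.

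Hapln2, the link protein of nodes of Ranvier, had the largest step of the 9 genes from its highest class to the next. It was 125 ± 44.4 CPM in oligodendrocyte-like nuclei, 31.9-fold above the next class, astrocyte-like nuclei (3.92 ± 3.34 CPM), with no overlap between ranges of 71.8 to 187 and 0 to 9.85 CPM. It was 86.4, 184, 84.7 and 147 CPM in controls and 187, 116, 123 and 71.8 CPM in stress pools, which overlapped. Myelin debris had been removed from the nuclei with beads. Its antisense neighbour Gm19439 was also highest in oligodendrocyte-like nuclei, at 7.76 to 28.7 CPM.

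Hapln4 (Bral2), a link protein that binds brevican, was low throughout, with 580 UMIs in all. Apart from the class of Cajal-Retzius-like nuclei, where 1 UMI was counted in 197 nuclei, it was highest in Pvalb-type (9.56 ± 6.57 CPM), CA2-like (9.44 ± 9.68 CPM) and CA3-like nuclei (5.83 ± 2.91 CPM). These ranges overlapped, and each class had at most 106 UMIs. In CA2-like nuclei alone Hapln4 was 5.27, 0, 4.93 and 6.95 CPM in controls and 12.3, 31.8, 8.58 and 5.71 CPM in stress pools, the highest from 2 UMIs. Oligodendrocyte-like nuclei had none.

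Tnr, which crosslinks lecticans, was 4442 ± 801 CPM in OPC-like nuclei, 3.16-fold above DG-like nuclei (1406 ± 138 CPM) with no overlap over pools. By pool it was 3516, 4139, 4915 and 4017 CPM in the OPC-like nuclei of controls and 3509, 4424, 5500 and 5515 CPM in those of stress pools, where the groups overlapped. Pvalb-type nuclei had 1119 ± 145, CA1-like 1034 ± 121 and CA3-like nuclei 856 ± 115 CPM. Tnr UMIs were seen in 96.0% of OPC-like nuclei and in 86.7% at 500 UMIs. They were also seen in 54.2% of microglia-like nuclei, 24.9% at 500 UMIs, where the mean level was 746 ± 203 CPM against 942 CPM over all nuclei. Summed neuron markers in microglia-like nuclei ranged from 3553 to 11886 CPM, against 13438 to 17761 CPM in CA2/3-like neurons, and the part of RNA from other nuclei in the Tnr of microglia-like nuclei was not tested. Oligodendrocyte-like nuclei had 156 ± 62.8 CPM, 12.4% of nuclei and 6.74% at 500 UMIs, but marker-gated ones had 947 ± 155 CPM.

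Tnc, a tenascin of astroglia and of development, was 94.1 ± 21.7 CPM in astrocyte-like nuclei, 5.86-fold above OPC-like nuclei (16.1 ± 8.26 CPM) and without overlap. Of its UMIs, 38.5% lay in astrocyte-like nuclei, which were 2.289% of all nuclei. By pool, Tnc was 92.7, 78.8, 110 and 98.1 CPM in controls and 49.5, 109, 118 and 96.6 CPM in stress pools. The lowest value, in Stress-Vehicle, rests on 11 UMIs, and the groups overlapped. No Tnc UMI was counted in 523 CA2-like nuclei, which allows up to 0.574% of nuclei with a UMI.

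Likeness of profiles was measured as the Pearson correlation of log2(CPM + 1) over 18 classes, among 12686 genes with at least 500 UMIs. The class means share the same 8 pools, except that medium spiny nuclei came from 6 of them. This likeness is a description. Nearest to Acan were the antisense transcript Gm26633 (r = 0.752), Ntf3 (0.733), a CA2 marker used in naming the class, and Tafa2 (0.725). Bcan was nearest to Gpc5 (0.827), a glypican of astrocytes, and Tnc to F3 (0.884), tissue factor, and Ndrg2 (0.866), both of astrocytes. Hapln2 was nearest to Gm9895 (0.970) and to Ermn (0.958), a cytoskeletal protein of oligodendrocytes. Hapln1 was nearest to Egfr (0.799), a marker used in naming the neurogliaform-type class. For Tnr the nearest was Myt1 (0.810), a zinc finger factor of the oligodendrocyte lineage, for Ncan Gabrb1 (0.919), for Vcan Mir9-3hg (0.659) and for Hapln4 Dlat (0.849). The highest class in the Hapln4 profile was Cajal-Retzius-like nuclei, on 1 UMI in 197 nuclei, so its likeness rests partly on that UMI. Among the 9 genes themselves the highest values were 0.650 for Ncan and Tnr, 0.618 for Bcan and Tnc and 0.550 for Bcan and Ncan.

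To find out whether RSD moved the 9 genes, UMIs summed per pool were compared with edgeR's quasi-likelihood test over 4 pairs of pools, in all nuclei and in 6 classes. That made 40 values, since genes with few UMIs in a class were not tested there. These 40 are not independent, as Pvalb-type nuclei are part of the inhibitory class and all classes are part of all nuclei. No gene passed an adjusted p of 0.05 in any class, and DESeq2 passed none either, with the adjusted p not given for 20 of 40 values. At an unadjusted p of 0.05, 12 of 40 passed, 8 of them higher under stress. Of all genes, between 7.11% (oligodendrocyte-like) and 16.1% (CA2/3-like) passed it. Over all nuclei 1786 of the 2909 genes that passed were higher under stress. Standard errors of the log2 change ranged from 0.101 to 0.492 with a median of 0.194.

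**Figure D3:**
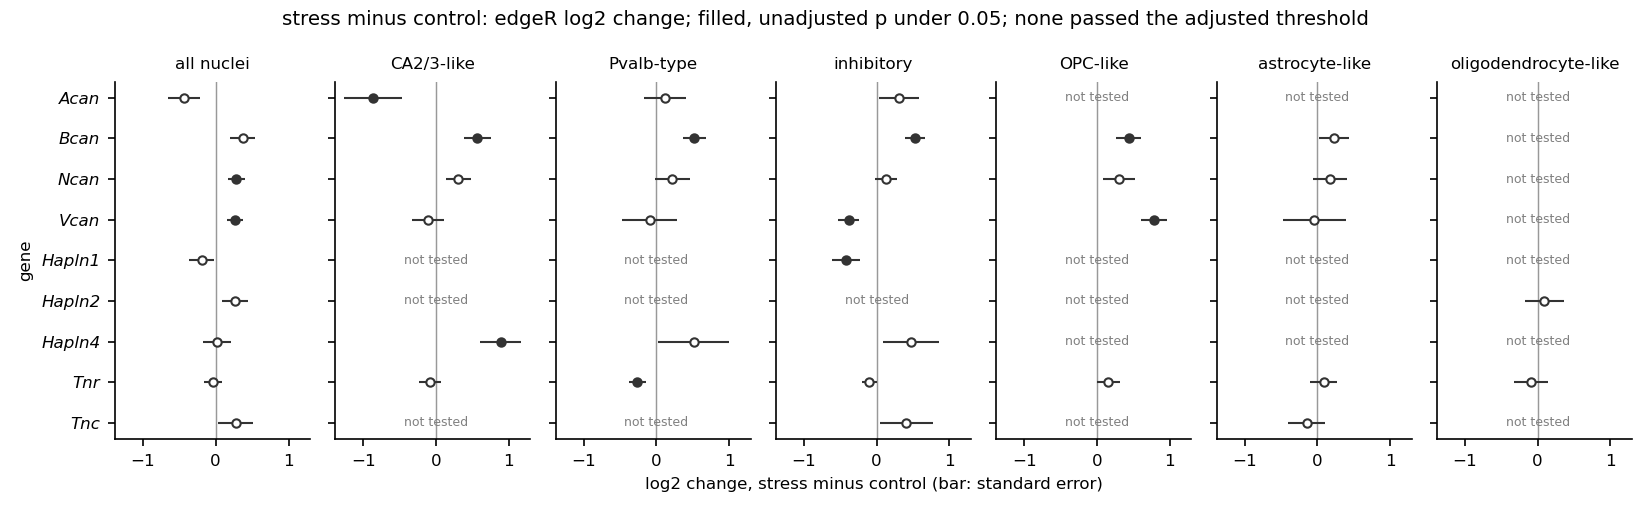
The edgeR log2 change, stress minus control (x axis, bar: standard error), of each of the 9 genes (y axis) in all nuclei and 6 classes. Filled points are the 12 with an unadjusted p under 0.05, and none passed the adjusted threshold; Bcan lies above 0 in each class where it was tested, and Vcan is highest in OPC-like nuclei (0.78) and below 0 in the inhibitory class (-0.38).

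Versican in OPC-like nuclei came nearest to the threshold under stress. Vcan was 444, 274, 542 and 369 CPM in the controls of the vehicle, PLX5622, IL-1R1+/+ and nIL-1R1-/- pairs and 573, 646, 761 and 907 CPM in their stress pools. Each stress pool was above its own control and above all 4 controls. The log2 change was 0.78 ± 0.18 (SE) at an adjusted p of 0.0709, and in the other tool, DESeq2, the adjusted p was 0.328. In OPC-like nuclei 0.0413% of 7266 genes passed the adjusted threshold and 7.53% the unadjusted, against 0 and 2 of the 4 tested net genes, whose median log2 change was 0.37 against 0.00802 over all genes. With the 9 genes kept among the clustering genes Vcan passed (0.77 ± 0.17, adjusted p = 0.0309), where 0.324% of genes did. In that setting Vcan could itself help to set which nuclei are OPC-like, so this is no independent check. The other one of the 2 was Bcan, at 237, 350, 217 and 200 CPM in controls and 319, 495, 337 and 238 CPM in stress pools. It was higher in 4 of 4 pairs while the groups overlapped (log2 change 0.44 ± 0.17, adjusted p = 0.459). Tnr had a log2 change of 0.16 ± 0.16 and Ncan of 0.30 ± 0.22.

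Several marker lists moved with Vcan in OPC-like nuclei. The 5 Vip/Adarb2-type markers summed to 1314 to 1562 CPM in control and 1686 to 1959 CPM in stress pools, and the 6 DG markers to 851 to 964 against 677 to 791 CPM, both without overlap. The 6 OPC markers summed to 608 to 804 CPM in control and 791 to 1040 CPM in stress pools, while oligodendrocyte markers were 808 to 2518 against 856 to 1561 CPM and neuron markers 6621 to 8933 against 5765 to 9288 CPM. Microglia markers were 10.9 to 51.8 CPM against 20.2 to 50.4 CPM, with up to 5 of 6 at 0 in a pool. Their part in the Vcan values was not tested.

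In CA2/3-like nuclei, 3 of 6 tested genes had an unadjusted p under 0.05, where 16.1% of 11617 genes did, and 0 passed the adjusted threshold, where 0.0258% did. The median log2 change of the 6 was 0.11, against -0.00044 over all genes. Bcan was 35.5, 38.7, 31.1 and 35.3 CPM in controls and 80.2, 72.8, 34.1 and 40.8 CPM in stress pools, in the order of pairs given for Vcan. The stress pools of the diet experiment lay far above every control, while those of the genotype experiment lay near them, and the fitted change was 0.56 ± 0.19 (adjusted p = 0.183). Hapln4 was 5.86, 3.42, 4.30 and 2.93 CPM in controls and 11.7, 9.61, 6.53 and 5.63 CPM under stress, higher in 4 of 4 pairs on 3 to 32 UMIs a pool (0.89 ± 0.28, adjusted p = 0.180). In CA3-like nuclei alone, chosen after the data were seen, the changes were 0.63 ± 0.18 for Bcan (adjusted p = 0.154) and 0.98 ± 0.33 for Hapln4 (adjusted p = 0.179). In CA2/3-like nuclei the 6 CA1 markers summed to 403 to 672 CPM in control and 297 to 397 CPM in stress pools, and 5 vascular markers to 4.80 to 7.97 against 2.75 to 3.75 CPM, both without overlap. The part of these in the Bcan and Hapln4 values was not tested.

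Acan in CA2/3-like nuclei was lower under stress in 3 of 4 pairs. Controls had 8.78, 7.97, 14.2 and 9.60 CPM and stress pools 13.4, 6.87, 3.27 and 2.82 CPM, so 3 of the 4 stress pools lay below every control, those of the genotype experiment furthest, while the vehicle pair was higher under stress. The values of the PLX5622 pair lay close together, on few UMIs from the shallowest pools. Over 4 pairs the log2 change was -0.86 ± 0.40 (adjusted p = 0.306). In the 2 genotype pairs alone it was -1.98 ± 0.37 with an adjusted p of 6.03e-05, where 1.47% of genes passed, and in the 2 diet pairs alone it was 0.37 ± 0.42 (adjusted p = 0.630). The test of that difference gave -2.39 ± 0.55 with an adjusted p of 0.0500, which before rounding lay just above the threshold, where 0.628% of genes passed. The fits of 2 pairs alone hold 4 pools for 2 pair terms and stress, so their error rests largely on the spread shared over genes. Of 229 Acan UMIs in CA2/3-like nuclei, 203 came from CA2-like nuclei, whose share of the field was 10.05, 4.804, 18.08 and 14.4% in controls and 11.81, 5.063, 10.21 and 13.19% in stress pools. The CA2 markers summed to 86.6 to 129 CPM in control and 86.1 to 191 CPM in stress pools. The part of these shares in the Acan values was not tested. In CA2-like nuclei alone, chosen after the data were seen, the change of Acan was -0.68 ± 0.31 (adjusted p = 0.424).

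**Figure D4:**
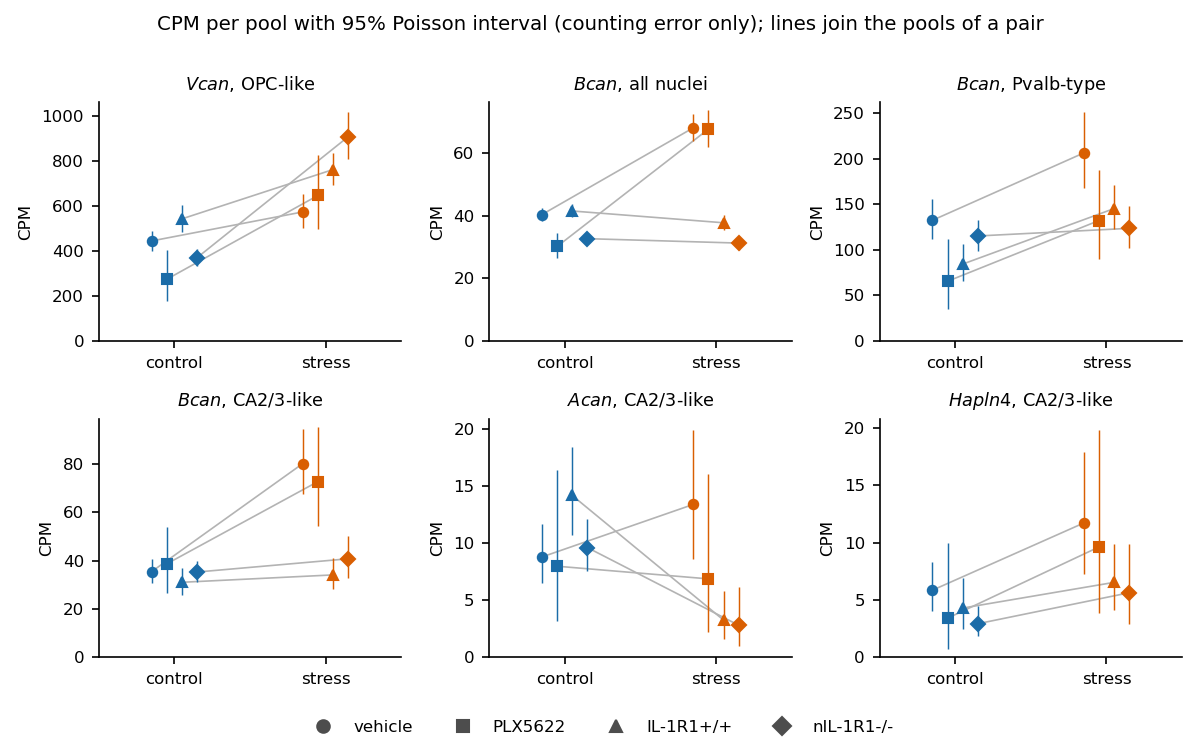
CPM in each pool (y axis) for 6 pairs of a gene and a class, controls left and stress pools right; symbols give the pair, lines join its pools and bars are 95% Poisson intervals. Vcan in OPC-like nuclei is higher in every stress pool than in any control, while Bcan over all nuclei splits into the diet pairs (68.1 and 67.7 CPM under stress) and the genotype pairs (37.8 and 31.3 CPM).

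In Pvalb-type nuclei the net genes did not pass either: 0 of 6 by adjusted p, where 0.357% of 8682 genes did, and 2 of 6 at an unadjusted p of 0.05, where 10.1% did. Their median log2 change was 0.17, against 0.00497 over all genes. Bcan had 132, 65.5, 84.4 and 115 CPM in controls and 206, 132, 145 and 124 CPM under stress. It was higher in 4 of 4 pairs with overlapping groups (0.52 ± 0.16, adjusted p = 0.167). Tnr was 1236, 1215, 1092 and 1307 CPM in controls and 1096, 831, 1052 and 1126 CPM under stress, lower in 4 of 4 pairs, with a log2 change of -0.26 ± 0.12 (adjusted p = 0.455). Acan changed by 0.12 ± 0.29 and Hapln4 by 0.51 ± 0.49. In these nuclei the Pvalb-type markers themselves summed to 1915 to 2335 CPM in control and 2374 to 2676 CPM in stress pools without overlap. Pvalb itself, a marker on that list, went the other way and was lower under stress in 4 of 4 pairs. It was 54.8, 30.2, 68.2 and 52.9 CPM in controls and 33.0, 25.6, 46.4 and 42.7 CPM under stress. Markers of other interneurons were lower under stress without overlap, at 146 to 170 against 120 to 129 CPM for Sst-type and 261 to 428 against 182 to 251 CPM for Vip/Adarb2-type markers, and medium spiny markers were higher, at 110 to 141 against 144 to 162 CPM. The part of these lists in the Bcan values was not tested.

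Over the whole inhibitory class, 0 of 8 genes passed the adjusted threshold (0.0394% of 12679 genes) and 3 of 8 the unadjusted (8.66%). The median log2 change was 0.22 against 0.00138 over all genes. Bcan was 54.9, 26.3, 43.7 and 40.5 CPM in controls and 85.3, 62.4, 54.7 and 51.3 CPM under stress (0.52 ± 0.14, adjusted p = 0.156). Vcan, which lies mostly in neurogliaform-type nuclei here, was 54.1, 40.1, 62.9 and 68.3 CPM in controls and 50.3, 38.1, 51.4 and 39.3 CPM under stress. It had a change of -0.38 ± 0.14 (adjusted p = 0.412) and was lower in 4 of 4 pairs, and Hapln1 -0.42 ± 0.19 (adjusted p = 0.563). Neurogliaform-type nuclei held 920 of the 1328 Vcan UMIs and 290 of the 446 Hapln1 UMIs of the class. Within them Vcan was higher under stress in the PLX5622 pair and lower in the other pairs. Hapln1 there was higher in the nIL-1R1-/- pair and lower in the others. The part of the share of neurogliaform-type nuclei in these changes was not tested. In marker-gated inhibitory nuclei the change of Vcan turned to 0.31.

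Astrocyte-like and oligodendrocyte-like nuclei gave no value under an unadjusted p of 0.05, for 5 and 2 tested genes. The shares of all genes were 8.14% unadjusted and 0.0561% adjusted in astrocyte-like nuclei (5344 genes) and 7.11% and 0.229% in oligodendrocyte-like nuclei (5245 genes). Median log2 changes were 0.09 for the 5 genes in astrocyte-like nuclei against 0.0118 over all genes, and -0.0011 for the 2 in oligodendrocyte-like nuclei against 0.00344. Bcan in astrocyte-like nuclei was 294, 414, 289 and 294 CPM in controls and 557, 370, 409 and 231 CPM under stress (0.23 ± 0.21), and Tnc had a change of -0.15 ± 0.25. Hapln2 in oligodendrocyte-like nuclei changed by 0.09 ± 0.27.

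Summed over all nuclei, 0 of 9 genes passed the adjusted threshold, where 0.328% of 19815 genes did, and 2 of 9, Ncan (0.28 ± 0.12, adjusted p = 0.311) and Vcan (0.26 ± 0.11, adjusted p = 0.296), passed the unadjusted, where 14.7% did. The median of the 9 was 0.26 against -0.00274 over all genes. Bcan over all nuclei was 40.4, 30.2, 41.5 and 32.7 CPM in controls and 68.1, 67.7, 37.8 and 31.3 CPM in stress pools. It was thus higher in both diet pairs and slightly lower in both genotype pairs. In the 2 diet pairs alone the log2 change was 0.86 ± 0.15 with an adjusted p of 0.0139, where 3.62% of genes passed, and in the 2 genotype pairs alone -0.09 ± 0.11 (adjusted p = 0.878). The error of such fits of 2 pairs rests largely on the spread shared over genes. In edgeR's test of the difference between the experiments, 0 of 19815 genes passed the adjusted threshold over all nuclei, so Bcan did not. Without the Slc17a6 excitatory and medium spiny classes, left out after the data were seen, the change over 4 pairs was 0.38 ± 0.17 (adjusted p = 0.320).

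PLX5622 was compared with vehicle over 2 pools on each side. The depletion itself showed in the number of microglia-like nuclei, which was 8 and 7 in the PLX5622 pools and 138 to 191 in each of the others. Of 40 values for the net genes 0 passed the adjusted threshold by edgeR or DESeq2 and 4 had an unadjusted p under 0.05. The median standard error was 0.301 and the largest 0.861, larger than under stress, and both PLX5622 pools were the shallowest, so that depth and diet cannot be told apart.

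**Figure D5:**
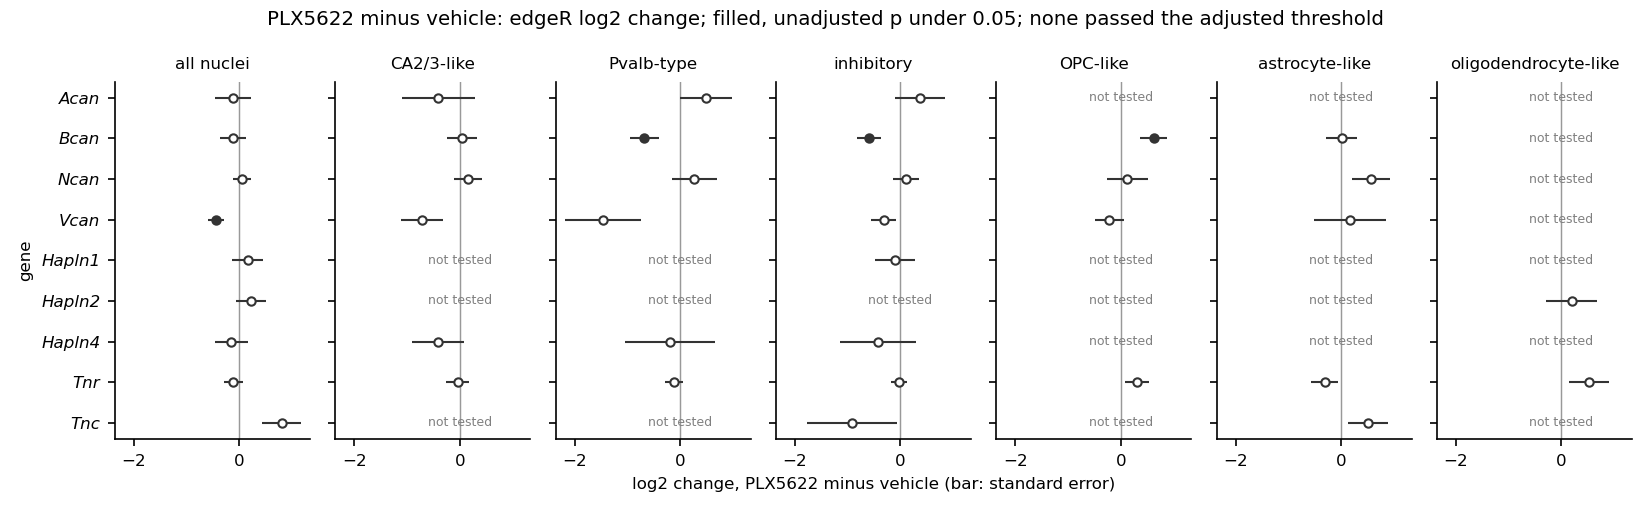
The edgeR log2 change, PLX5622 minus vehicle (x axis, bar: standard error), of each of the 9 genes (y axis) in all nuclei and 6 classes. The 4 filled points, with an unadjusted p under 0.05, are Vcan in all nuclei (-0.44) and Bcan in Pvalb-type (-0.68), inhibitory (-0.59) and OPC-like nuclei (0.62).

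The 4 values were for Vcan and Bcan. Vcan over all nuclei was 17.8 and 26.1 CPM in the PLX5622 pools and 28.3 and 32.9 CPM in the vehicle pools (-0.44 ± 0.16, adjusted p = 0.621). Bcan in Pvalb-type nuclei was 65.5 and 132 CPM on PLX5622 and 132 and 206 CPM on vehicle (-0.68 ± 0.28, adjusted p = 0.765). In the inhibitory class Bcan was 26.3 and 62.4 CPM against 54.9 and 85.3 CPM (-0.59 ± 0.23, adjusted p = 0.751). OPC-like nuclei had the opposite sign, with 350 and 495 CPM of Bcan on PLX5622 against 237 and 319 CPM on vehicle (0.62 ± 0.26, adjusted p = 0.798). After thinning to 500 UMIs, which left out 156 of 1172 OPC-like nuclei, the change was -0.28. In OPC-like nuclei many marker lists separated the diets as well, with 2 pools on each side. Astrocyte markers were 635 to 697 CPM on PLX5622 and 343 to 376 CPM on vehicle. Oligodendrocyte markers were 1384 to 2518 against 856 to 1258 CPM and inhibitory markers 1905 to 2182 against 1228 to 1642 CPM. Neuron markers went the other way, at 6413 to 8902 against 8933 to 9288 CPM. The part of these lists in the Bcan values was not tested.

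These counts stood against the following shares of all genes. At the unadjusted threshold they were 6.75% in all nuclei (1 of 9 net genes), 4.59% in CA2/3-like (0 of 6), 6.35% in Pvalb-type (1 of 6), 5.95% in inhibitory (1 of 8), 6.12% in OPC-like (1 of 4), 4.92% in astrocyte-like (0 of 5) and 5.13% in oligodendrocyte-like nuclei (0 of 2). At the adjusted threshold they were 0% in all nuclei, 0% in CA2/3-like, 0.0461% in Pvalb-type, 0.071% in inhibitory, 0.0275% in OPC-like, 0.112% in astrocyte-like and 0% in oligodendrocyte-like nuclei. Median log2 changes of the net genes lay between -0.22 (CA2/3-like) and 0.36 (oligodendrocyte-like, 2 genes).

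Acan did not change past its error with diet, at -0.41 ± 0.69 in CA2/3-like and 0.49 ± 0.50 in Pvalb-type nuclei. These errors are as large as or larger than the changes themselves, and how large a change could have been detected was not worked out.

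Deletion of Il1r1 from Vglut2 neurons was compared over 2 pools on each side as well. Of 40 values 0 passed the adjusted threshold by edgeR or DESeq2, and 2 had an unadjusted p under 0.05, both over all nuclei: Hapln4 (-0.72 ± 0.25, adjusted p = 0.967) and Hapln2 (-0.54 ± 0.24, adjusted p = 1.0). Hapln4 was 1.91 and 1.88 CPM in the knockout pools against 3.71 and 2.81 CPM in IL-1R1+/+, and Hapln2 was 2.17 and 2.08 CPM against 2.89 and 3.73 CPM. Hapln2 within oligodendrocyte-like nuclei differed by 0.11 ± 0.33 in the other direction. Acan was -0.34 ± 0.48 in CA2/3-like nuclei and -0.03 ± 0.37 in Pvalb-type nuclei. The shares of all genes at the unadjusted threshold were 4.04% in all nuclei, 1.43% in CA2/3-like, 2.6% in Pvalb-type, 2.07% in inhibitory, 3.85% in OPC-like, 6.1% in astrocyte-like and 2.88% in oligodendrocyte-like nuclei. At the adjusted threshold they were 0.112% in astrocyte-like nuclei and 0% in each of the others.

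Genes that build, cut or read the net were counted as well, in 4 lists: hyaluronan synthesis and turnover, synthesis and sulfation of chondroitin sulfate, proteases with their inhibitors, and receptors and factors bound by the net. Over the classes, 20, 79, 39 and 82 values were tested. By edgeR 0 passed the adjusted threshold in any class or contrast. Under stress 35 of 220 had an unadjusted p under 0.05 (21 higher and 14 lower), with PLX5622 14 and with genotype 13. These are 15.9%, 6.36% and 5.91% of the values, against 11.3%, 5.85% and 3.17% of all genes when the share in each class is weighted by the list values tested there. The genes named next were picked by their values. Ptprs, a receptor for chondroitin sulfate, came nearest in Pvalb-type nuclei, with 433, 302, 334 and 370 CPM in controls and 673, 584, 468 and 451 CPM under stress. Each stress pool exceeded every control (0.53 ± 0.12, adjusted p = 0.0585), and DESeq2 called it (adjusted p = 0.0398), the only call among these 220 values by DESeq2 under stress, where DESeq2 called 0.369% of 8682 genes in Pvalb-type nuclei. Ctss, the microglial protease cathepsin S, was over all nuclei 0.915 and 1.59 CPM on PLX5622 and 2.48 and 5.74 CPM on vehicle (-1.61 ± 0.42, adjusted p = 0.472). Nrp1, a coreceptor of the semaphorins that nets bind, was in OPC-like nuclei 87.6 and 50.5 CPM on PLX5622, on 8 and 5 UMIs, and 238 and 184 CPM on vehicle (-1.59 ± 0.42, adjusted p = 0.495).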

How the data were processed

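The authors deposited raw counts of UMIs per nucleus and gene, with a table of nuclei that names each nucleus's pool. Per the study's methods, nuclei were barcoded in split-pool rounds (Parse Biosciences) and reads were aligned to mm39 with the Parse pipeline; Seurat 4.1.1 stands in the submitters' processing notes, and the annotation release is not given in the sources used here. The counts had no scaling, and nuclei with high mitochondrial shares were still among them. All pools were spread over the 4 sublibraries.

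Here nuclei with over 20% mitochondrial UMIs were left out. Counts were log-normalized, 2000 variable genes (the 9 net genes excluded) gave 30 principal components, and Leiden clustering ran at resolution 1 (leidenalg 0.10.2, Python 3.11.15). Clusters with oligodendrocyte markers among their top 10 genes were clustered again at resolution 0.5. Each cluster was named for its best-scoring marker list, if this score was at least 1.25 times that of the next list. At least 3 of its markers had to reach 0.2 of their CPM in the cluster where they were highest. The cluster's top 10 genes had to hold a marker of its class, and no other list could have more there. By this rule 17 of 39 clusters stayed unnamed, some with a clear best score. One of 2746 nuclei scored 0.541 for CA1 against 0.102 for the next list. This rule was settled after cluster tables had been seen. Doublets were not called; leaving out the deepest 5% of nuclei of each class and pool was an alternative. The members and all gene and marker lists were chosen with earlier results of these data known.

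UMIs were summed per class and pool and fitted with edgeR 4.0.16 (R 4.3.3; TMM, filterByExpr, quasi-likelihood test, Benjamini-Hochberg over all genes tested in the class, call at an adjusted p under 0.05), with the pair of pools and stress as terms over all 8 pools; diet and genotype are contrasts of the pairs. The study tested nuclei as replicates, which was not done here. The standard error given with an edgeR log2 change is the size of the change over the square root of the test's F statistic. It therefore restates the test and is not a separate estimate. DESeq2 1.42.0 was an alternative, with an adjusted p it withheld kept as missing. The pair is set by the design, since both its pools share diet or genotype and experiment. Deviations from the group means within pairs correlated with r of 0.196 to 0.248 over all nuclei, 0.145 to 0.265 in CA2/3-like, 0.0784 to 0.14 in Pvalb-type, 0.0798 to 0.171 in inhibitory, 0.0166 to 0.188 in OPC-like, 0.0185 to 0.183 in astrocyte-like and 0.0496 to 0.0947 in oligodendrocyte-like nuclei. The test was run on simulated counts for OPC-like, CA2/3-like and all nuclei. Those counts had a common dispersion for all genes and no differences between pairs. The run therefore cannot show how the test behaves with the spread of these pools.

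The 9 genes were tested in every class where they had enough UMIs, and the text prints only part of these log2 changes. The figures of log2 changes show all tested values for stress and diet, and there is none for genotype. Of the other net genes, counts are given for whole lists, and genes past the threshold were to be named, of which edgeR gave 0, so those named were picked by their values. CPM has exact Poisson and shares of nuclei exact Clopper-Pearson intervals at 95%. A count of 0 allows 3 UMIs.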

Additional observations from a re-analysis of the deposited data

Results flagged for a closer look

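A single pool stood far from the other 3 of its group in 5 of 80 groups tested with Dixon's criterion, about the 1 in 20 that chance gives. Bcan in astrocyte-like nuclei was 413.6 CPM in Control-PLX5622 against 289, 294 and 294 CPM in the other controls. Ncan in CA2/3-like nuclei was 91.1 CPM in Control-PLX5622 against 54.9, 57.5 and 59.6 CPM, and 100.3 CPM in Stress-Vehicle against 70.0, 70.4 and 73.7 CPM in the other stress pools. Vcan over all nuclei was 17.8 CPM in Control-PLX5622 against 27.3, 27.6 and 28.3 CPM. Hapln1 over all nuclei was 2.38 CPM in Stress-Vehicle against 3.30, 3.45 and 3.45 CPM. Control-PLX5622, in 3 of the 5, was among the 2 shallowest pools, and the part of depth in these values was not tested.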

How the results depend on the processing

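The count of net genes past the threshold was 0 in each class and contrast and stayed 0 in all but 3 alternatives. Under stress it was 1 over all nuclei in the 2 diet pairs alone (Bcan), 1 in CA2/3-like nuclei in the 2 genotype pairs alone (Acan), and 1 in OPC-like nuclei when the 9 genes were kept among the clustering genes (Vcan, 0.77 on the log2 scale). In the last of these settings Vcan could itself help to set the class in which it was tested. Leaving out each pair or pool in turn gave between 0 and 0. Without the pair as a block the count was also 0 in every class. Over all nuclei 0 of 18576 genes passed in place of 65 of 19815, and in Pvalb-type nuclei 1 of 7712 in place of 31 of 8682. In each of the other classes 0 genes of any kind passed without the block. A count of 0 net genes there is therefore no check of the pairing. DESeq2 called 285 genes over all nuclei and 104 in CA2/3-like nuclei under stress, where edgeR called 65 and 3. Of the 18 log2 changes with an unadjusted p under 0.05, 3 changed sign in an alternative: Acan in CA2/3-like nuclei under stress to 0.37 in the diet pairs alone, Vcan in inhibitory nuclei under stress to 0.31 in marker-gated nuclei, and Bcan in OPC-like nuclei with PLX5622 to -0.28 after thinning to 500 UMIs. Of the other 102, most of them within 2 standard errors of 0, 83 changed sign in at least 1 alternative, among them Acan in Pvalb-type nuclei (-0.20) and Bcan over all nuclei (-0.09) under stress in the genotype pairs alone. The cause was not tested, beyond the smaller number of pools or UMIs that these settings hold. Acan in CA2/3-like nuclei became stronger in the genotype pairs alone (-1.98). The log2 change of Vcan in OPC-like nuclei ranged from 0.23 to 0.94 over its 15 alternatives, with adjusted p from 0.0309 to 0.916, and Bcan in Pvalb-type nuclei from 0.38 to 0.73. For the 2 highest classes of each gene, levels moved past their spread in 1 of 38 alternatives: Hapln2 in oligodendrocyte-like nuclei was 42.4 ± 10.3 CPM in marker-gated nuclei. Hapln4 in Cajal-Retzius-like nuclei, among the 38, could hardly move past its SD of 36.9 CPM, which came from 1 UMI. Over all classes 26 of 297 levels moved past their spread, 21 of them in marker-gated nuclei. With the 9 genes kept among the clustering genes 0 of 153 did. Tnr in marker-gated oligodendrocyte-like nuclei was 947 ± 155 CPM and Acan there 3.55 ± 1.65 CPM. Acan in CA3-like nuclei was 7.95 ± 3.46 CPM on 15 components, where no CA2-like class formed. Shares of nuclei with a UMI fell with thinning for 18 of 18, which follows from the removal of UMIs and is no check of the shares. Clustering on 15 components gave no Pvalb-type, CA2-like or neurogliaform-type class, and the gates, which left under 5 nuclei in a pool for Pvalb-type and OPC-like nuclei, gave no level or test for these and no CA2-like or neurogliaform-type class, so the levels of Acan and Hapln1 in their highest classes had neither check. Depth limits low genes in the PLX5622 pools most.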
